A study of Mus musculus with 5 samples.

Results

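The 36 genes described here belong to the integrated stress response and to tRNA charging, and were measured in islet cells and tumors of mice with a mutated glucagon receptor gene, Gcgr. They comprised 5 transcription factors and regulators (Atf4, Ddit3, Cebpb, Nupr1 and Trib3), 6 enzymes of asparagine, serine and one-carbon metabolism (Asns, Psat1, Phgdh, Psph, Shmt2 and Mthfd2), 5 other ATF4 targets (Ddit4, Sesn2, Chac1, Vldlr and Fgf21) and 20 cytosolic aminoacyl-tRNA synthetases. The genes were taken by symbol from a fixed list, without use of their levels, but with earlier results of these data known. All 36 were found among the 36529 gene rows of the 3 deposited tables. The 5 single-cell libraries were of 10x Genomics 3′ chemistry (Mus musculus). Of these, 1 came from Gcgr heterozygous islets, 1 from homozygous Gcgr knockout islets and 3 from pancreatic tumors of homozygous Gcgr knockouts. No group was treated and all animals ate standard chow. Strain and age are not given in the labels used here, and none of the 5 libraries is labelled as having 2 intact copies of Gcgr. The tumor libraries are called A, B and C, because the table does not say which numbered tumor each one is. Loss of glucagon receptor signalling is known to raise circulating amino acids and to expand the alpha cells, which make glucagon, and the title of the series ties tumor formation to amino acids and to a subset of these cells.

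ATF4 is the transcription factor of the integrated stress response. Kinases that sense amino acid shortage, endoplasmic reticulum stress, double-stranded RNA or haem shortage phosphorylate the initiation factor eIF2, which lowers general translation and favours translation of Atf4 mRNA. ATF4 protein then binds with C/EBP partners to composite C/EBP-ATF elements and induces amino acid transporters, biosynthetic enzymes and many tRNA synthetases, the enzymes that attach each amino acid to its tRNA. Secretory cells of the islet use the same pathway when protein folding is overloaded. Because ATF4 is controlled largely at translation, Atf4 mRNA does not measure ATF4 protein, which was not assayed.

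The core of the composite element, TGATGNAA read on either strand, was sought in RefSeq promoter windows of 300 bases (250 before to 50 after the transcript start, build GRCm38.p6). A window was found for 29 of the 36 members, and 11 of the 29 (37.9%) held the motif, against 1219 of 27025 genes (4.51%). The members holding it were Nupr1, Trib3, Asns, Chac1, Vldlr, Fgf21, Iars, Aars, Gars, Tars and Yars. Rars, Lars, Cars, Hars, Nars, Vars and Wars had no window in the table. Such a match is a description of the letters and no evidence of binding. The sites below are from the synthetases and targets on which the results turn, on the strand of the gene, with the motif in capitals. They lie at chr13:49682126-49682155 (Iars), chr8:111033840-111033869 (Aars), chr15:11399655-11399684 (Tars), chr6:55037960-55037989 (Gars), chr6:7693214-7693243 (Asns), chr7:126625562-126625591 (Nupr1), chr2:119351038-119351067 (Chac1) and chr2:152344028-152344057 (Trib3), of which Tars, Asns, Nupr1 and Trib3 are on the minus strand and the others on the plus strand.
Iars: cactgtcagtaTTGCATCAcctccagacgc
Aars: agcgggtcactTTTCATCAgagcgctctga
Tars: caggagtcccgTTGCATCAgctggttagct
Gars: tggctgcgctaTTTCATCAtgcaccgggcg
Asns: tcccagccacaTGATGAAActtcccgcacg
Nupr1: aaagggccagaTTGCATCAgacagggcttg
Chac1: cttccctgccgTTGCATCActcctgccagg
Trib3: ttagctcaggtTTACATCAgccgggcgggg

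The Iars motif began at base 8 of the transcript and the Trib3 motif at base 15. Counting bases before the start as negative, the motifs of Tars, Asns and Gars began at -15, -23 and -30. Those of Nupr1 and Chac1 lay farther upstream, at -110 and -193. Aars held 2 matches, the one shown at base 10 of the transcript and another, TTGCATCA, at -112.

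Between 10114449 and 34091060 unique molecular identifiers (UMIs, one per captured transcript) per library remained in 496 to 2843 kept cells, with medians of 10961 to 26091.5 UMIs per cell. No cell name occurred in more than 1 library. The term alpha-like cells covers islet cells with the authors' alpha label (306 heterozygous and 1525 homozygous) and every kept tumor cell (496, 846 and 1084 in tumors A, B and C). Gcgr itself stood at 2.49 CPM (UMIs per 1000000) in heterozygous alpha cells (8 UMIs), at 0 in the homozygous ones and at 0 to 0.14 CPM in the tumors. All 6 alpha cell markers had UMIs in each of these 5 sets. Of 8 beta cell markers 7 had UMIs in heterozygous alpha cells (Mafa was at 0). Their sum was 55516 CPM there and 11489 CPM in the homozygous alpha cells, and 4.35, 99.3 and 3323 CPM in tumors A, B and C. Other hormone transcripts went the other way between the islets. Ppy, of pancreatic polypeptide cells, was at 16006 CPM in heterozygous and 76625 CPM in homozygous alpha cells. In tumors A, B and C it was at 2350, 275.5 and 540 CPM. Delta cell markers summed to 1990 CPM in heterozygous and 4569 CPM in homozygous alpha cells. Immediate early genes, known to respond quickly when tissue is handled, summed to 3344 CPM in heterozygous alpha cells, 355 in homozygous alpha cells and 2110 to 2398 in the tumors. Median mitochondrial shares were 0.586% and 0.583% in the alpha cells and 1.18% to 2.00% in the tumors. The islet tables were scaled by all UMIs of a cell and the tumor table by its exonic UMIs, so the tables were normalized separately, and levels set across them carry that difference. With 1 library per islet genotype, p-values measure only the spread between these libraries.

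The members were spread widely in depth of detection. Over all kept cells Atf4 was counted with 16325 UMIs, Gars with 8770 and Sars with 8270, while Fgf21, the stress hormone of liver and pancreas, was counted with 5. Phgdh, the first enzyme of serine synthesis, reached at most 4.34 CPM in any cell type, in heterozygous beta cells (75 UMIs). Trib3, a pseudokinase that restrains ATF4, was counted at 0.311 CPM in heterozygous alpha cells, 0.361 CPM in the homozygous ones and 0.791, 0.487 and 1.79 CPM in tumors A, B and C. Its highest levels were in endothelial cells, with 17.6 CPM (95% exact Poisson interval 9.83 to 28.97, 15 UMIs) in the heterozygous and 10.6 CPM (3.89 to 23.1, 6 UMIs) in the homozygous library. Intervals of this kind cover counting error only. The plot of member levels in alpha-like cells shows the whole set.

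**Figure D1:**
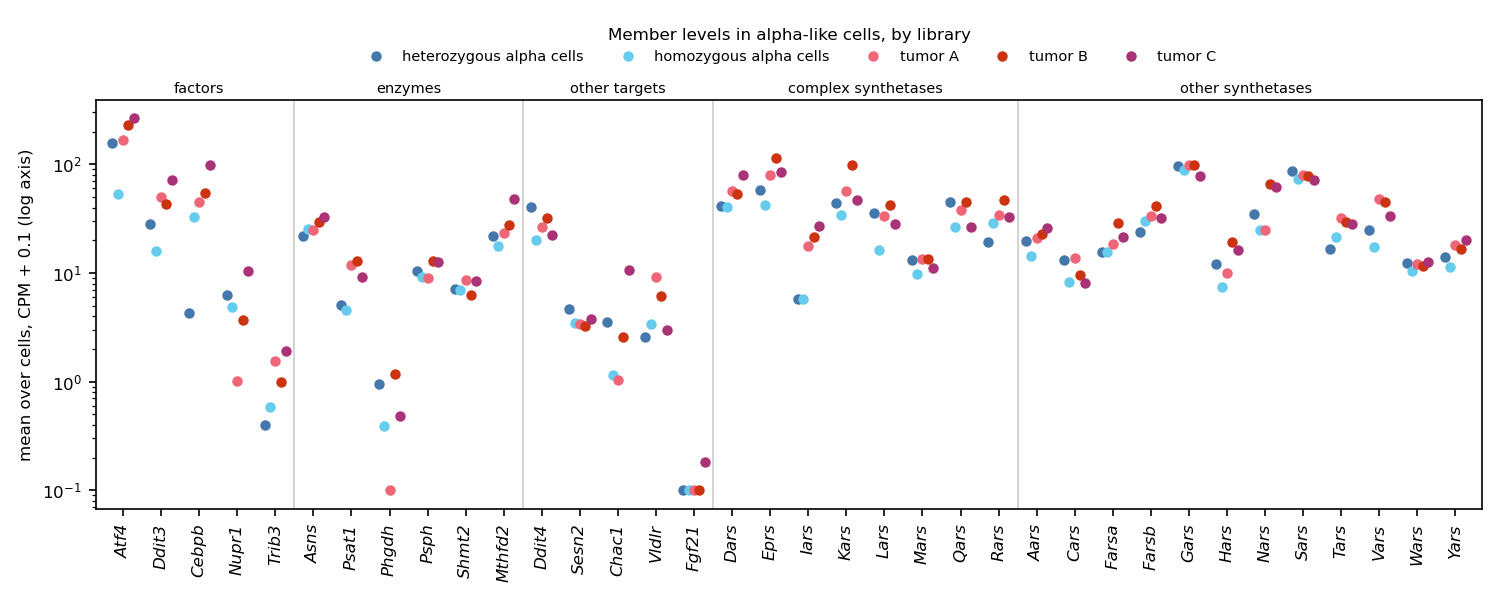
Mean over alpha-like cells of CPM plus 0.1 (log axis) for the 36 members in each of the 5 libraries, grouped by role. Iars is level in the islets and higher in all 3 tumors, Cebpb is lowest in the heterozygous alpha cells, Fgf21 lies at or near 0 in every library, and Nupr1 and Chac1 scatter widely among the tumors.

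The first comparison set the 3 tumor libraries against the alpha cells of the 2 islet libraries. One member passed the test: Iars, the isoleucyl-tRNA synthetase, was higher in every tumor. Its mean level over cells was 5.67 CPM in the heterozygous alpha cells and 5.68 in the homozygous ones. In tumors A, B and C it was 17.7, 21.1 and 26.8 CPM (mean 21.9 ± 4.63, SD, n = 3). The 2 islet libraries were nearly equal, and all 3 tumors lay well above them. Relative to the median gene, which was 0.25 higher in tumors on the log2 scale, Iars was 1.51 ± 0.27 (SE) higher on the log2(CPM + 1) scale, with an adjusted p of 0.0272 (limma, Benjamini-Hochberg over 10234 genes). Higher calls were made for 2.08% of all genes tested and lower calls for 0.137%. The size of the Iars difference stayed between 1.34 and 1.70 on the log2 scale in all alternatives except a pseudocount of 10 (0.85), but the call was lost with each library left out in turn (adjusted p 0.0560 to 0.117), with edgeR's quasi-likelihood test on recovered UMIs (0.0601), with TMM scaling (0.0620), without hormone transcripts in the totals (0.0619), with a filter of 20 CPM (0.0546) and with no filter (0.0928). It was kept with DESeq2 on recovered UMIs (adjusted p 9.22e-05) and with UMIs summed over cells (limma adjusted p 0.0227).

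Of the other members, 30 were tested and none passed, in either direction. Trib3, Phgdh, Sesn2, Chac1 and Fgf21 were too low to be tested. At an unadjusted p under 0.05, 9 of the 31 tested members (Iars included) were higher and 0 lower, where 1923 of 10234 genes were higher and 269 lower. The members' median difference relative to the median gene was 0.26 on the log2 scale. For 16 of the 31 tested members every tumor library lay above both islet libraries, against 33.7% of all genes tested, and for 0 members every tumor lay below, against 5.62% of genes.

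**Figure D2:**
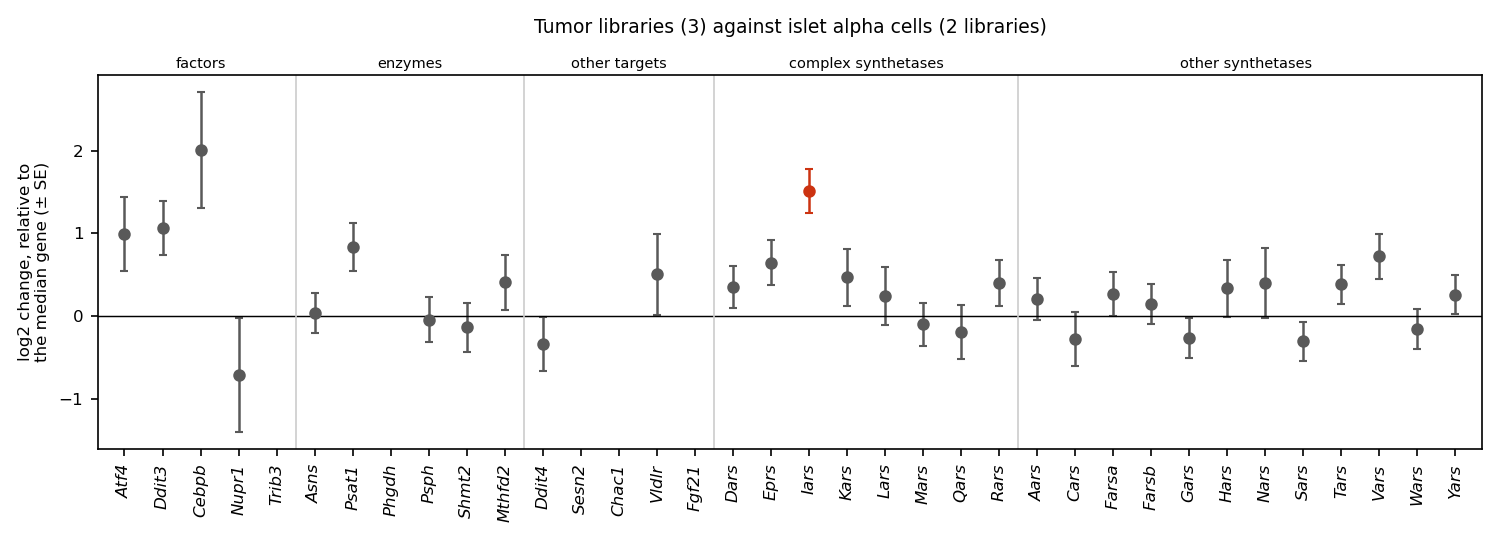
Difference between tumor libraries (n = 3) and islet alpha cells (n = 2 libraries) on the log2(CPM + 1) scale, relative to the median gene, with the limma standard error, for the 31 tested members by role. The 1 member past the threshold, Iars at 1.51, is red, and Cebpb at 2.01 has the widest error.

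Among the factors, Atf4 was at 158 CPM (heterozygous) and 52.7 CPM (homozygous) in the alpha cells and at 167, 229 and 265 CPM in tumors A, B and C. The heterozygous value lay just under tumor A, while the homozygous value was far below all 3 tumors. Its difference was 0.99 ± 0.45 (limma adjusted p 0.172). Ddit3, which encodes the stress factor CHOP, was at 28.2 and 15.7 CPM in the alpha cells and at 49.9, 43.4 and 71.5 in the tumors, or 1.06 ± 0.33 higher (limma adjusted p 0.0844). Cebpb, a C/EBP partner of ATF4, was at 4.22 CPM (heterozygous) and 32.7 CPM (homozygous) in the alpha cells and at 45.1, 54.5 and 98.8 in the tumors. Here the 2 islet libraries were farther apart than the homozygous library was from tumor A. The Cebpb difference was 2.01 ± 0.70 (limma adjusted p 0.127), became 3.51 with a limma adjusted p of 0.04998 when the homozygous library was left out, and 0.49 (adjusted p 0.293) without the heterozygous one. Nupr1, a small stress-induced chromatin protein, was at 6.14 and 4.77 CPM in alpha cells and at 0.923, 3.59 and 10.4 in the tumors, which lay on both sides of the islet values.

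Of the enzymes, Psat1 of the serine pathway was at 4.93 and 4.45 CPM in the alpha cells and at 11.7, 12.7 and 9.02 in the tumors, all 3 above both islets (0.84 ± 0.29, limma adjusted p 0.0959). Mthfd2, the mitochondrial one-carbon enzyme, was at 21.8 and 17.5 CPM against 23.2, 27.7 and 47.4, so that tumor C stood apart from the other two (0.41 ± 0.33, limma adjusted p 0.296). Asns, asparagine synthetase and a classical ATF4 target, gave 21.9 and 25.3 CPM against 24.9, 29.3 and 33.0, groups that overlapped (0.04 ± 0.24, limma adjusted p 0.538). Psph, which completes serine synthesis, was at 10.3 and 9.17 CPM against 8.93, 12.7 and 12.7, and Shmt2, which makes glycine from serine in mitochondria, at 7.04 and 6.87 against 8.48, 6.16 and 8.29. Both overlapped between groups. Chac1, a glutathione-degrading ATF4 target, was low and uneven, with 3.41 and 1.05 CPM in alpha cells and 0.946, 2.46 and 10.6 in the tumors. Ddit4, an inhibitor of mTORC1, was at 40.0 and 20.2 CPM in alpha cells, on both sides of the 26.3, 32.0 and 22.2 CPM of the tumors. Vldlr was at 2.47 and 3.31 CPM against 9.11, 6.04 and 2.87, and Sesn2, a leucine sensor upstream of mTORC1, ranged from 3.18 to 4.58 CPM over all 5 libraries. The targets thus did not share 1 pattern across the libraries.

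The 20 synthetases were all tested. Those of the multisynthetase complex, which holds several of these enzymes on a scaffold, had a median difference of 0.37 (8 genes, 1 called), and the other 12 a median of 0.23 (0 called). Eprs, which charges both glutamate and proline, was at 57.4 and 42.2 CPM in alpha cells and at 80.0, 115 and 84.9 in the tumors (0.64 ± 0.27, limma adjusted p 0.125). Vars, for valine, was at 24.9 and 17.3 CPM against 47.9, 44.9 and 33.5 (0.72 ± 0.27, limma adjusted p 0.106). Tars, for threonine, was at 16.5 and 21.5 CPM against 32.1, 29.2 and 27.98 (0.38 ± 0.24, limma adjusted p 0.182), and Dars at 41.0 and 40.8 against 57.0, 53.6 and 78.9 (0.35 ± 0.26, limma adjusted p 0.231). In all 4 of these the tumors lay above both islet libraries, but the differences did not pass the test. Aars, Rars, Farsa, Farsb and Yars, for alanine, arginine, phenylalanine (both subunits) and tyrosine, had all tumors above both islets as well, with differences of 0.15 to 0.40. Tumor B held the highest level of Kars, for lysine, at 99.2 CPM, where tumors A and C were at 56.8 and 46.4 and the alpha cells at 43.7 and 34.2. For asparagine, Nars was at 65.8 and 62.0 CPM in tumors B and C but at 24.8 in tumor A, just under the 24.9 and 35.1 of the islets. Gars and Sars, for glycine and serine, differed little, with 78.5 to 98.2 and 70.9 to 79.3 CPM in the tumors against 88.4 to 96.6 and 72.7 to 86.8 in the alpha cells. Of the synthetases for the branched-chain amino acids, Iars and Vars had every tumor above both islets. Lars, for leucine, overlapped between groups (35.4 and 16.2 CPM against 33.1, 41.9 and 28.4). Its heterozygous value lay among the tumors and its homozygous value below all of them. Differences between these synthetases were not tested. Mars, Qars, Cars, Hars and Wars, for methionine, glutamine, cysteine, histidine and tryptophan, also overlapped, with differences from -0.28 to 0.33. The 8 tested members with the promoter motif had a median difference of 0.23 (1 called) and the 16 tested members with a window but no motif a median of 0.31 (0 called).

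Around the members, 2 of 17 tested sensors and regulators of eIF2 rose and 0 fell. Over all 10234 genes tested, 2.08% were called higher and 0.137% lower. Eif2ak3, the kinase PERK of the endoplasmic reticulum, went from 8.57 and 10.1 CPM in alpha cells to 24.3, 28.2 and 40.2 in the tumors (1.35 ± 0.28, limma adjusted p 0.0340). Ppp1r15b, the constitutive subunit that directs dephosphorylation of eIF2, went from 13.01 and 10.2 CPM to 42.0, 44.6 and 65.4 (1.77 ± 0.28, limma adjusted p 0.0243). Thus a kinase and an opposing phosphatase subunit were both higher in all 3 tumors. Among 21 tested further ATF4 targets and partners, Herpud1, of endoplasmic reticulum protein degradation, rose from 63.6 and 51.2 CPM to 174, 152 and 139 (1.17 ± 0.25, limma adjusted p 0.0327), and 0 fell. Of 13 tested mitochondrial synthetases and 3 scaffold proteins of the multisynthetase complex, 0 passed in either direction by limma. With edgeR's quasi-likelihood test the adjusted p was 0.105 for Eif2ak3, 0.0537 for Ppp1r15b and 0.113 for Herpud1. By limma the 3 calls were also lost with no filter (adjusted p 0.106, 0.0924 and 0.0924) and without hormone transcripts in the totals (0.0903, 0.0502 and 0.0856), and those of Eif2ak3 and Herpud1 with TMM scaling (0.0873 and 0.0807). Leaving out 1 library also ended these calls, in every case for Eif2ak3 (0.0687 to 0.133) and Herpud1 (0.0670 to 0.120) by limma's adjusted p, and for Ppp1r15b without the heterozygous (0.101), the homozygous (0.0788) or the tumor A library (0.0522). Among the 8 immediate early genes Fosb and Nr4a1 rose, from 117 and 14.1 CPM to 698, 527 and 634 and from 21.5 and 7.74 CPM to 128, 153 and 89.9. By limma the adjusted p was 0.0390 for Fosb and 0.0222 for Nr4a1. Without the homozygous library or without tumor A both calls were lost (0.0546 and 0.0947 for Fosb, 0.0648 and 0.0577 for Nr4a1), and that of Fosb also without tumor B (0.0542) or tumor C (0.0670). Both were also lost with edgeR (adjusted p 0.156 for Fosb and 0.0657 for Nr4a1) and, by limma, with no filter (0.129 and 0.0924), and that of Fosb with TMM scaling (0.0778) and without hormone transcripts in the totals (0.0733). The part of handling in the members' levels was not tested.

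The second comparison asked whether alpha-like cells with Slc38a5, an amino acid transporter for glutamine and related amino acids, differed in the members from alpha-like cells in which none was counted. Cells were thinned to 5000 UMIs and called positive with a Slc38a5 UMI, which gave 64, 983, 434, 821 and 1034 positive and 195, 444, 46, 21 and 34 negative cells in the heterozygous, homozygous, tumor A, tumor B and tumor C libraries. Before thinning, 40.8% of heterozygous and 82.8% of homozygous alpha cells had a Slc38a5 UMI (medians of 10002.5 and 14086 UMIs per cell). In beta cells the shares were 4.96% and 38.0% (medians of 26444 and 10854), and in endothelial cells 0.513% and 7.01% (medians of 3587 and 2061). The classes are therefore of counted UMIs and not of expression, and the part of free RNA in them was not tested. The tumor table holds no other cell type to give such a share. No member of the 33 tested passed, in limma or in any alternative, including edgeR and DESeq2, while 0.0725% of 11029 genes were called higher and 0.0272% lower. At an unadjusted p under 0.05, 7 members were higher and 1 lower, where 1523 genes were higher and 94 lower. The members' median difference was 0.03 relative to the median gene, which itself was 0.19 higher in positive cells. Positive cells of all 5 libraries had higher values of 4 members, Mthfd2, Farsb, Gars and Nars, against 13.2% of genes, and 0 were lower in all 5, against 1.28%.

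Gars gave 110, 95.5, 103, 98.9 and 78.9 CPM in the positive cells, in the order of libraries above, and 95.9, 71.9, 65.0, 78.3 and 72.2 in the negative cells. The gap was widest in tumor A, and the difference was 0.16 ± 0.11 (limma adjusted p 0.216). For Mthfd2 the positive cells gave 23.0, 17.8, 24.8, 27.9 and 48.3 CPM and the negative cells 21.9, 17.7, 16.3, 22.8 and 23.2. In both islet libraries the Mthfd2 values were nearly equal, and the gap came from the tumors, where 21 to 46 cells were negative. Aars, for alanine, went the other way in 4 of 5 libraries, with 8.93, 15.3, 21.4, 22.4 and 25.5 CPM in positive and 24.9, 13.01, 23.2, 35.9 and 48.7 in negative cells (-0.75 ± 0.22, limma adjusted p 0.273). Atf4 gave 159, 54.5, 161, 229 and 262 CPM in positive and 156, 48.7, 209, 221 and 250 in negative cells, so that the libraries differed far more than the classes. Iars was higher in the positive cells of 3 libraries and lower in those of 2 (0.09 ± 0.24, limma adjusted p 0.602).

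Outside the members, Atf3, a stress-induced partner of the ATF family, fell in positive cells, with 52.7, 2.14, 135, 50.6 and 95.6 CPM against 68.9, 4.56, 430, 111 and 313 (-1.32 ± 0.17, limma adjusted p 0.0228). It was the 1 gene called among 22 tested further targets and partners, with 0 called among 17 eIF2 genes. Over all 11029 genes tested, 0.0272% were called lower, and 1.28% were lower in positive cells of every library. Jun was the 1 immediate early gene called among 8, with 612, 88.5, 247, 237 and 229 CPM against 740, 159, 386, 327 and 409 (-0.80 ± 0.10, limma adjusted p 0.0307), and 5 of the 8 were lower in positive cells of every library. Both calls were lost without tumor A, without tumor B or without tumor C (adjusted p of Atf3 0.263, 0.130 and 0.0798 and of Jun 0.263, 0.130 and 0.0806) and that of Jun also without the homozygous library (0.118), all by limma. Both were also lost by limma with summed UMIs (adjusted p 0.0607 for Atf3 and 0.0649 for Jun), with no filter (0.423 for each), without the library block (1.00 for each) and with thinning to 3000 UMIs (0.0583 and 0.136). With the thinning seed that was run first, Atf3 did not pass (-1.14, limma adjusted p 0.0551) and Jun did (-0.69, 0.0474). Negative cells held fewer UMIs than positive cells before thinning, with medians of 10417 to 22586 against 13068.5 to 26273, and the part of depth in these values was not tested.

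The third comparison set homozygous against heterozygous cells of 1 type. Levels here are UMIs summed over the cells of a type, so they differ slightly from the means over cells above. With 1 library per genotype there was no test, and a gene counted as past the limit when its ratio exceeded 1.5-fold either way after division by the ratio of the median gene. In alpha cells 17 members reached 20 CPM in 1 of the 2 libraries, and 4 were past the limit upward (Cebpb, Asns, Rars and Farsb) and 4 downward (Atf4, Ddit3, Ddit4 and Lars), against 14.1% and 13.6% of 4726 genes. The members' median was -0.07 relative to the median gene, which was itself at -0.33 on the log2 scale.

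Atf4 was at 151 CPM (heterozygous, 138 to 165) and 49.1 CPM (homozygous) in alpha cells, a ratio of 0.325 (95% exact interval 0.292 to 0.363). Ddit3 followed in the same direction, from 28.6 to 13.5 CPM (ratio 0.473, 0.373 to 0.604), and Ddit4 from 36.7 to 19.1 (0.520, 0.423 to 0.644). Lars went from 31.1 to 15.7 CPM (0.505, 0.403 to 0.637). All 4 intervals excluded the ratio of the median gene and also a ratio of 1. Cebpb went the opposite way, from 4.66 CPM (15 UMIs) to 31.0 CPM (687 UMIs), a ratio of 6.65 (4.001 to 11.9). The smaller gains were a ratio of 1.47 (1.13 to 1.96) for Rars, which charges arginine, 1.24 (0.960 to 1.63) for Asns and 1.22 (0.962 to 1.57) for Farsb, a subunit of the phenylalanyl enzyme. These 3 passed the limit only through the division by the median gene. Ddit3, Ddit4 and Lars reached the filter of 20 CPM in the heterozygous library alone, and Cebpb in the homozygous alone.

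Other genes of the pathway went both ways in homozygous alpha cells. Relative to the median gene, the medians were 0.08 for the eIF2 genes, -0.38 for the further targets and 0.87 for the scaffold proteins. Of all 4726 genes past the filter, 14.1% were past the limit upward and 13.6% downward. Among 7 eIF2 genes past the filter Ppp1r15a, the stress-induced phosphatase subunit, was at 21.5 against 75.9 CPM and Impact, a regulator of the kinase GCN2, at 26.8 against 54.1, while Dnajc3, an inhibitor of eIF2 kinases, was at 152 against 108. Of 11 further targets 0 were past the limit upward and 5 downward, namely Atf3 (2.93 against 63.7 CPM), Atf5 (8.89 against 20.8), Slc3a2 (60.2 against 152), Slc38a2 (17.6 against 67.8) and Cbs (4.69 against 21.5). Both Aimp2 and Eef1e1, scaffold proteins of the synthetase complex, were past it upward, at 25.0 against 16.2 and 23.1 against 15.9 CPM. Atf3, Atf5, Slc38a2 and Cbs reached the filter of 20 CPM in the heterozygous library alone, and Aimp2 and Eef1e1 in the homozygous alone. The immediate early genes went the way of Atf4 and Ddit3 and opposite to Cebpb, since 7 of 7 past the filter were lower in homozygous alpha cells with a median of -3.15 relative to the median gene. Their part in the lower Atf4, Ddit3 and Ddit4 was not tested, and genotype, animal and handling cannot be told apart here.

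Beta cells gave another picture for the same factors. Of 15 members past the filter, 2 were past the limit upward (Cebpb and Vldlr) and 1 downward (Nupr1), against 8.59% and 8.93% of 3248 genes. Atf4 was at 89.0 CPM in heterozygous and 83.9 in homozygous beta cells, and Ddit3 at 25.4 and 26.0, without the gap of the alpha cells, and this difference between the types was not tested. The immediate early genes summed to 849 and 512 CPM in these cells, a smaller gap than in alpha cells. Nupr1 went from 76.6 CPM (72.5 to 80.8) to 23.3 (19.5 to 27.7), a ratio of 0.304 (0.252 to 0.365). Vldlr, a lipoprotein receptor, went from 14.01 to 22.4 CPM (1.60, 1.28 to 1.99), and Cebpb from 6.37 to 23.9 (3.75, 2.89 to 4.87). Both Vldlr and Cebpb reached the filter of 20 CPM in the homozygous library alone.

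In endothelial cells, which held 854119 and 566145 UMIs in all, 28 members passed the filter. Past the limit upward were 6 (Cebpb, Nupr1, Shmt2, Ddit4, Iars and Vars) and downward 3 (Mars, Rars and Aars), against 13.6% and 12.7% of 7524 genes. Intervals excluded the median gene for Cebpb, Nupr1, Ddit4 and Aars alone. Ddit4 went from 112 to 237 CPM (ratio 2.11, 1.61 to 2.77), Nupr1 from 26.9 to 118 (4.39, 2.70 to 7.40) and Aars from 51.5 to 17.7 (0.343, 0.154 to 0.692). The other 5 rest on 11 to 33 UMIs in each library. Cebpb in the heterozygous and Aars in the homozygous library rest on fewer UMIs than any of these 5. Nupr1 in the heterozygous library lies within the same range as they do. Aars reached the filter of 20 CPM in the heterozygous library alone, and Cebpb in the homozygous alone.

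**Figure D3:**
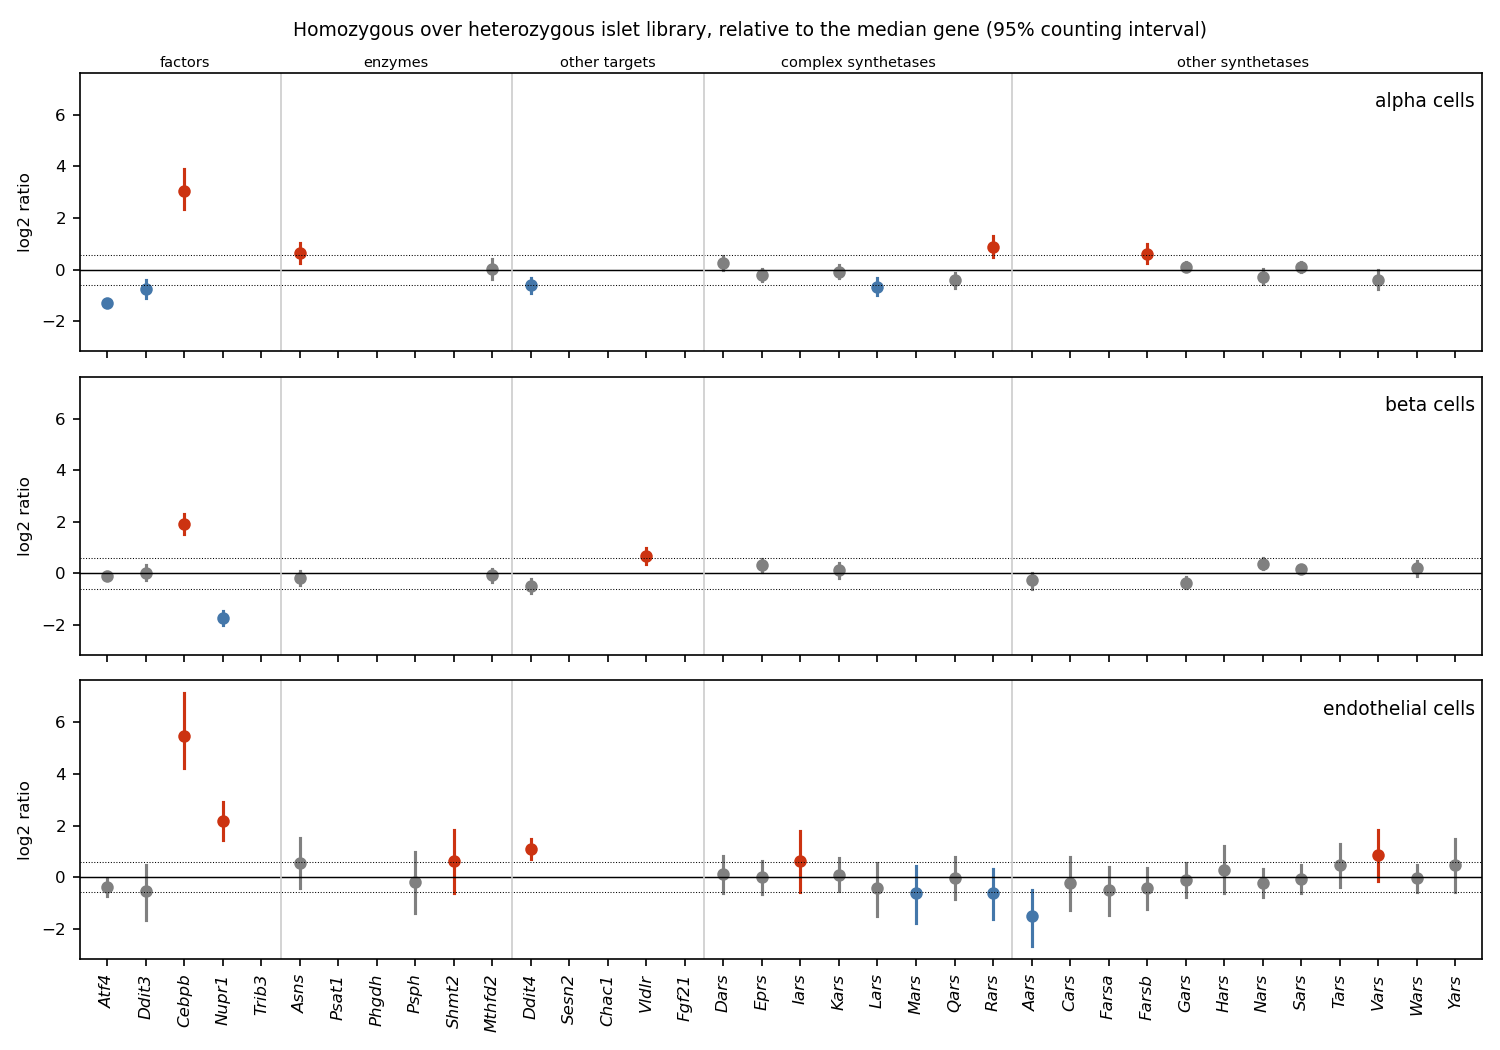
Homozygous over heterozygous ratio of summed UMIs on the log2 scale, relative to the median gene, with 95% exact counting intervals, for members at 20 CPM or more in 1 library, in alpha (17 members), beta (15) and endothelial cells (28). Red and blue points are past 1.5-fold (dotted lines) upward and downward, also where the interval reaches the median gene at 0, and Cebpb is red in all 3 panels.

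Cebpb was higher in the homozygous library in all 5 types present in both libraries (alpha, beta, delta, endothelial and stellate). Delta cells, which make somatostatin, gave 6.69 CPM (1.38 to 19.5, 3 UMIs) in the heterozygous and 31.3 CPM (25.7 to 37.8) in the homozygous library. Endothelial cells gave 5.85 (1.90 to 13.7, 5 UMIs) and 258 (218 to 303), and stellate cells, the fibroblast-like cells of the pancreas, 44.4 (12.1 to 114, 4 UMIs) and 1089 (946 to 1248). Within the homozygous library Cebpb was alike in alpha, beta, delta and pancreatic polypeptide cells, at 22.4 to 31.3 CPM, and far higher in endothelial and stellate cells. Whether free RNA from the latter adds to the endocrine values was not tested, and a library effect cannot be told apart from genotype.

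Within the homozygous library, the authors' alpha clusters 2.1 and 2.2 were set against each other in the same way. Cluster 2.1 held 947 cells with Slc38a5 at 1087 CPM, and cluster 2.2 held 563 cells with Slc38a5 at 195 CPM. Of 14 members past the filter 0 were past the limit in either direction, against 3.38% of 3847 genes upward and 2.55% downward. At such shares a count of 0 among 14 members is not particular to them. Atf4 was at 49.6 and 48.6 CPM and Asns at 26.9 and 22.9. The member farthest above the median gene was Gars, at 95.6 against 68.0 CPM, and the farthest below was Ddit4, at 18.5 against 20.5. Both stayed within the limit, although 5 immediate early genes were past it downward in cluster 2.1. Of 7 eIF2 genes past the filter Ppp1r15a was past the limit downward in cluster 2.1, and 0 were past it upward. Among 10 further targets Cebpd and Slc38a2 were past it downward and 0 upward.

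The cell types of the islet were then compared for the members, as a description, since the types were made from the same cells. In the heterozygous library 18 members passed the filter, with 2 past the limit upward in alpha over beta cells and 9 downward, against 16.7% and 16.3% of 4696 genes. In the homozygous library 18 passed, with 1 upward and 10 downward, against 19.9% and 23.4% of 3922 genes. Without the division by the median gene the counts were 8 upward and 3 downward in the heterozygous and 5 and 7 in the homozygous library. The median gene was 0.79 and 0.53 higher in alpha cells on the log2 scale in the heterozygous and homozygous libraries. Beta cells held 704758 and 622142 CPM of their own markers, mostly hormone transcripts.

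Nupr1 stood out as the beta-biased member, at 6.53 against 76.6 CPM in the heterozygous and 4.69 against 23.3 in the homozygous library. Asns, Mthfd2, Ddit3, Ddit4, Nars, Sars and Wars were also past the limit downward in both libraries. Mthfd2, for example, was at 20.8 CPM in heterozygous alpha and 30.5 in heterozygous beta cells, with 17.0 against 29.02 CPM in the homozygous library. For Ddit3 (28.6 and 25.4 CPM) and Ddit4 (36.7 and 35.9 CPM) in the heterozygous library the direction turned without the division by the median gene, to 0.17 and 0.03 on the log2 scale. Dars, for aspartate, was the 1 member past the limit upward in both, at 41.7 against 15.9 and 39.2 against 16.6 CPM. Qars, for glutamine, was at 40.4 against 10.6 CPM in the heterozygous and 24.1 against 11.9 in the homozygous library, past the limit in the first. The synthetases of the multisynthetase complex had medians of 0.29 and 0.47 relative to the median gene (5 genes past the filter in each library), and the other synthetases medians of -0.82 (7 genes) and -1.06 (5 genes). Without the division by the median gene these medians were 1.09 and 1.00 for the complex and -0.03 and -0.53 for the other synthetases, in the heterozygous and homozygous library. A gene passed the filter at 20 CPM in either type, so some entered only through the type where they were higher. Dars and Qars entered through alpha cells alone, and Wars and Nupr1 through beta cells alone. In the homozygous library Mthfd2, Ddit3, Ddit4 and Vldlr also entered through beta cells alone. The 5 complex genes included Lars in the heterozygous library only and Rars in the homozygous only. These medians therefore describe the genes that passed and are no comparison of the groups of synthetases.

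**Figure D4:**
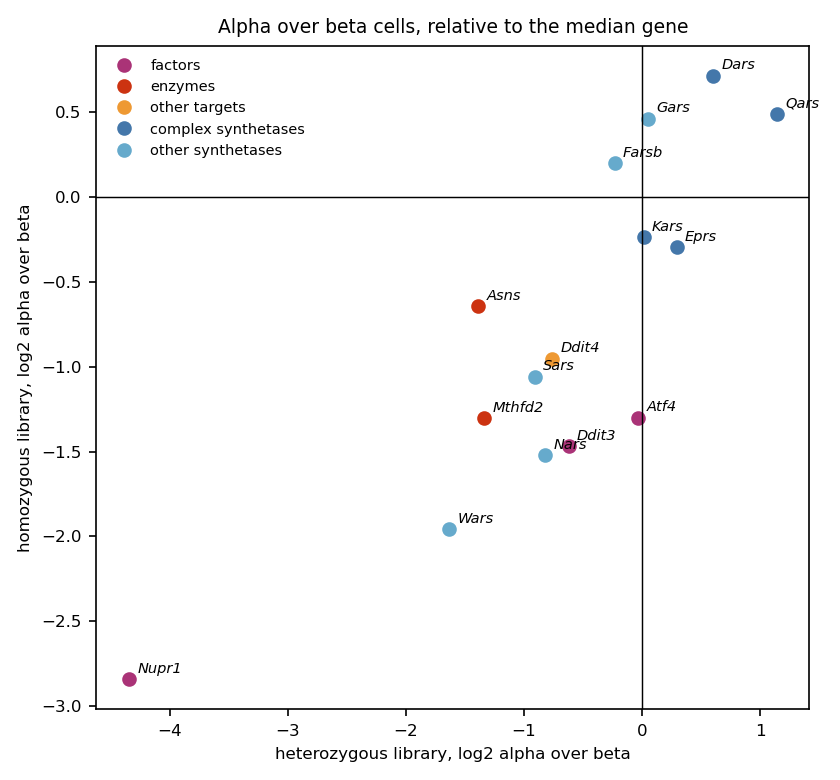
Alpha over beta ratio of summed UMIs on the log2 scale, relative to the median gene, in the heterozygous (x axis) and homozygous library (y axis), for members past the filter in both, coloured by role. Dars and Qars of the multisynthetase complex lie at the upper right, Nupr1 at the lower left, and Atf4 at the median gene on the x axis and below it on the y axis.

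Non-endocrine cells held the highest levels of several members. Wars, the tryptophanyl-tRNA synthetase, was at 94.8 (75.3 to 118) and 90.1 CPM (67.1 to 118) in endothelial cells of the heterozygous and homozygous libraries, and at 9.70 to 12.7 CPM in alpha cells. Nupr1 was at 655 (499 to 846) and 679 CPM (567 to 807) in stellate cells. Nars was at 160 CPM (105 to 232) in heterozygous macrophages and at 146 (104 to 199) in a type the authors left unnamed in the homozygous library. For Wars in endothelial and Nupr1 in stellate cells the intervals of the 2 libraries overlapped. Macrophages and the unnamed type carry different labels, though all 5 macrophage markers had UMIs in both. These markers summed to 17560 CPM in the heterozygous macrophages and 18578 CPM in the unnamed type. Whether the 2 are the same type was not tested.

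The tumor clusters were nearly the libraries themselves: cluster 3 was tumor A, cluster 1 tumor B, and clusters 2 and 4 tumor C. Differences between clusters 1, 3 and the pair of tumor C therefore cannot be told apart from differences between libraries. Inside tumor C, cluster 2 (697 cells) held the cell cycle kinase gene Cdk4 at 2765 CPM and the p53 regulator Mdm2 at 2450 CPM, where cluster 4 (385 cells) held 212 and 168. Cdk4 lies on chromosome 10 (127063535 to 127067288), and the starts of the members Ddit3, Mars and Shmt2 lie 227, 233 and 454 kb from it. Mars was at 10.6 CPM (8.98 to 12.5) in cluster 2 and 10.2 (8.14 to 12.6) in cluster 4, and Shmt2 at 8.20 (6.75 to 9.88) and 7.90 (6.09 to 10.1). Ddit3, between Cdk4 and both of these, was lower in cluster 2, at 57.9 CPM (54.0 to 62.1) against 92.9 (86.5 to 99.8). Mars and Shmt2 were thus level between the clusters within their counting intervals.

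Of 22 members past the filter Ddit3 was the 1 past the limit downward and 0 were past it upward, against 8.02% and 7.34% of 5460 genes. The ratio was 0.623 (0.564 to 0.690), and 6 of 8 immediate early genes were also past the limit downward in cluster 2. Ddit3 and Mars overlap by 71 bases, and no source used here gives the strand setting of the counting. Chac1, below the filter, was at 0.795 CPM in tumor A and at 7.09 (5.75 to 8.66) and 15.3 (12.8 to 18.2) in clusters 2 and 4 of tumor C. Without the cells of cluster 2 the Iars difference between tumors and alpha cells was 1.48 (limma adjusted p 0.0309), an alternative added after the data were seen.

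**Figure D5:**
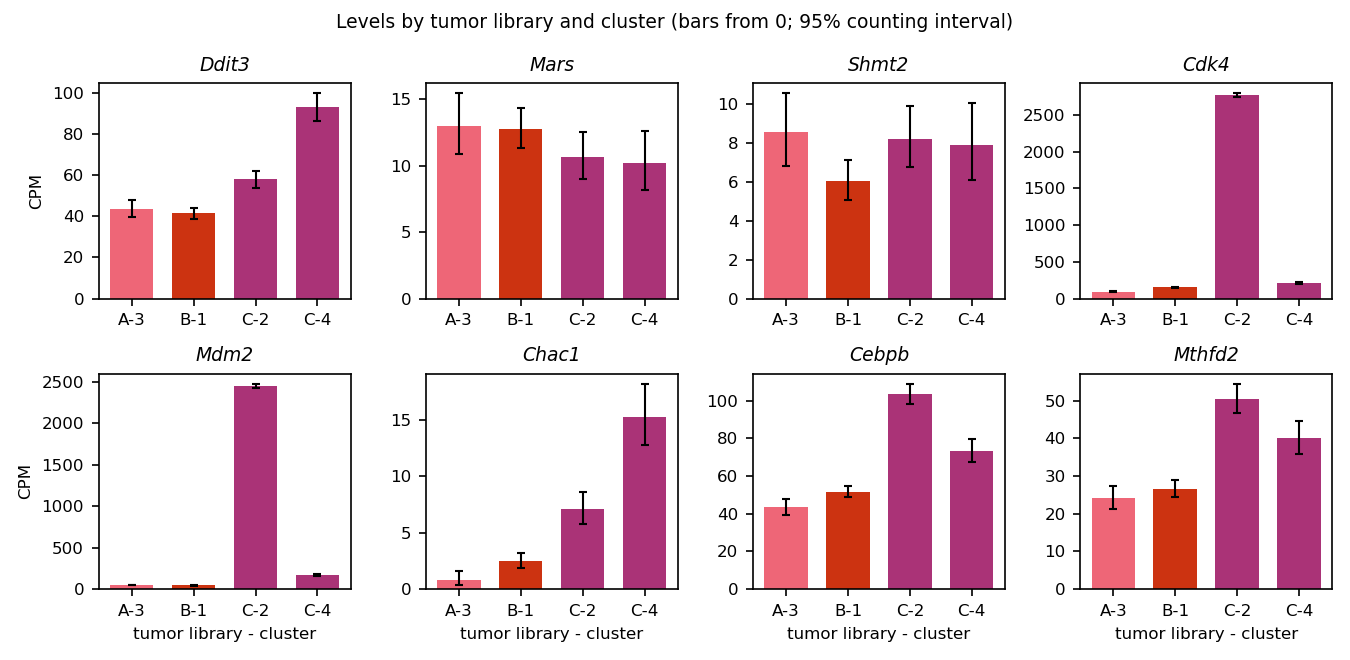
CPM from 0 with 95% exact Poisson intervals in tumor A (cluster 3), tumor B (cluster 1) and tumor C (clusters 2 and 4). Cdk4 and Mdm2 are high in cluster 2 of tumor C alone, Mars and Shmt2 are level between clusters 2 and 4, and Ddit3 and Chac1 are highest in cluster 4.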

How the data were processed

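The authors deposited tables of normalized UMIs per gene and cell, a signal scaled to a constant per cell (9936 for the islets, by all UMIs; 12219 for the tumors, by exonic UMIs), which was read from the values and from cell totals that the authors deposited as counts. The submitters' processing notes name CASAVA 1.8, bcl2fastq 2.17, GSNAP 2013-10-10 and the build GRCm38. Whole UMIs came back for 100% of values within 0.01.

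All cells passed minimums of 1000 UMIs and 500 genes and a maximum of 20% mitochondrial UMIs. Scrublet, through scanpy 1.11.5 with an expected rate of 0.06, removed 1 to 17 doublets per library; in the homozygous library it marked 1 of 2844 cells. Types and clusters are the authors' own. For the tests, mean CPM over cells per library was log2-transformed with a pseudocount of 1 and fitted with limma 3.58.1 (R 4.3.3) over genes with 5 CPM in 2 libraries, with Benjamini-Hochberg adjustment at 0.05; such differences understate those of low genes. Slc38a5 classes of 20 cells or more had library as a block, since both classes come from the same library. On recovered UMIs edgeR 4.0.16 called 14 genes higher and 1 lower for the tumors, and for Slc38a5 it called 41 genes higher and 58 lower. Ratios used UMIs summed over cells, with no test. Members and lists were chosen with earlier results of these data known; all members could be named, other pathway genes only past a threshold. Scripts were tested on simulated data in which genes of moderate level were changed. A first thinning seed, with 78 positive heterozygous cells, was replaced after its fit had been seen by one with 64; under the first seed the Atf3 call is lost. One promoter sequence is not reported here.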

Additional observations from a re-analysis of the deposited data

Results flagged for a closer look

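Between the genotypes, 3 members went in opposite directions in 2 cell types, with 1 library per genotype, and none of these differences between types was tested. Relative to the median gene on the log2 scale, Ddit4 was at -0.61 in homozygous against heterozygous alpha cells and at 1.1 in endothelial cells. Rars was at 0.89 in alpha cells and at -0.62 in endothelial cells, where it rests on 14 and 33 UMIs and its interval reaches the median gene. Nupr1 was at -1.71 in beta cells and at 2.16 in endothelial cells, with 67 and 23 UMIs in the latter.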

How the results depend on the processing

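In the tumor comparison the genes called higher (213) became 400 with DESeq2, 39 with TMM scaling, 14 with edgeR, 6 with no filter, 25 without hormone transcripts in the totals and 140 without cluster 2, and 13 to 142 with 1 library left out; those called lower (14) became 267, 9, 1, 0, 5 and 9, and 0 to 23. The 1 member called became 0 with a 20 CPM filter, TMM scaling, edgeR, no filter or totals without hormones, and 0 to 1 with a library left out (1 without the homozygous library, where it was Cebpb). Members that failed the test turned sign at small sizes: Asns -0.01 (20 CPM), -0.06 (DESeq2) and -0.05 (edgeR); Psph 0.05 (summed UMIs), 0.01 (DESeq2), 0.02 (edgeR), 0.14 (no filter) and 0.01 (without hormones); and with no filter Shmt2 0.05, Mars 0.08 and Wars 0.03. With 1 library left out the ranges that crossed 0 were -0.23 to 0.28 for Asns, -0.14 to 0.09 for Psph, -0.15 to 0.61 for Lars, -0.16 to 0.01 for Mars, -0.42 to 0.03 for Qars, -0.05 to 0.83 for Rars and -0.18 to 0.45 for Farsb. No paired analysis was possible because the labels pair no tumor with an islet library and the groups share fewer than 2 numbers.

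For Slc38a5-positive cells, genes called higher (8) became 21 (20 CPM), 5 (summed UMIs), 14 (DESeq2), 41 (edgeR), 0 (no filter), 24 (pseudocount 10), 3 (thinning to 3000 UMIs) and 14 (the thinning seed run first, kept as an alternative after the data were seen), and 1 to 26 with a library left out; those lower (3) became 7, 1, 30, 58, 0, 7, 0 and 5, and 0 to 9, with 11 under TMM and 13 without hormones. Without the replicate block that pairs the classes, 0 genes were called higher and 0 lower. The 0 members called stayed 0 under all 17 alternatives. Nars turned to -0.0002 with summed UMIs and ranged from -0.01 to 0.08 with 1 library left out.

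Members past the limit moved as follows, higher and lower. With a 2-fold limit they were 1 and 1 in alpha cells (from 4 and 4), 1 higher in beta cells (from 2), 3 and 1 in endothelial cells (from 6 and 3), 1 and 5 in alpha over beta of the heterozygous library (from 2 and 9) and 0 higher in that of the homozygous (from 1). With 50 CPM they were 0 and 1, 0 higher, 3 and 1, 0 and 2, and 0 and 2. Without division by the median gene they were 1 and 7 in alpha cells, 8 and 3 in heterozygous alpha over beta and 5 higher in the homozygous. With 5 CPM they were 2 lower in beta cells, 19 lower in heterozygous and 4 higher in homozygous alpha over beta; without hormones 15 lower and 4 higher; with means over cells 1 higher in the heterozygous. There, without the division, Ddit3 turned to 0.17 and Ddit4 to 0.03. The cause of these shifts was not tested. Depth limits Fgf21, Phgdh and Trib3 in alpha cells and most members in stellate cells.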
